A study of Mus musculus with 230 samples.

Results

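Imprinted genes were followed in sensory neurons of the mouse dorsal root ganglion, the cluster of neuron cell bodies beside the spinal cord whose axons run in the sciatic nerve. The set holds 48 genes of the 53278 in the deposited count table, chosen by name because each is known to be expressed from a single parental allele in some mouse tissue, and 38 of the 48 passed the expression filter that left 14212 genes for testing. All mice were C57BL/6 X CAST/Ei crosses, and neurons picked by hand from L4 and L5 ganglia were labelled as intact or as taken after sciatic nerve injury. The low-input libraries, each made from a small pool of neurons, number 18, with 3 for each of 6 groups: intact and injured at 1 month, 8 months and 12 months of age (the last is also labelled 1 year). Single neurons were profiled from the cytoplasm at 1 month and 1 year. The time from injury to collection, the number of neurons in a pool, the sex of the mice and the direction of the cross are not given in the sources used here. The labels do not say whether intact and injured neurons came from the same or from separate animals, or that the 3 libraries of a group came from separate animals, so the p-values below measure only the spread between these libraries, which may be technical.

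In an imprinted gene, DNA methylation laid down in the egg or the sperm at an imprinting control region marks the chromosome by its parent of origin, and the mark decides which allele is transcribed. Most such genes lie in domains in which coding genes, noncoding RNAs and microRNAs share a control region, and many are active in neurons, where Ndn, Peg3 and Nap1l5 are expressed from the paternal allele and Meg3 and Ube3a from the maternal allele. Several are imprinted in only some tissues or for only some transcripts: Cd81 is known as maternally expressed in placenta, and Inpp5f has a paternal transcript that starts inside the gene. The counts analysed here add the reads of both parental alleles and of all transcripts of a gene, so they give its total RNA and not the use of its alleles.

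Levels are given as CPM (counts scaled by sequencing depth), using effective library sizes, and levels of different genes are compared only per kilobase of exon. The libraries held 7531967 to 19443627 counts on genes, of which a single feature, CT010467.1, took 29.4% to 59.7% in injured libraries and 40.4% to 93.8% in intact ones. Intact 12-month replicate 2 stood apart, with 93.8% of its counts on that feature and 40.5% of the rest on mitochondrial genes, which left an effective library size of 553669; results that rest on it are given with and without it. All 11 neuron markers had counts, with a sum of 7621 to 23962 CPM per library. Of 9 known nerve injury genes, 8 were called higher after injury by edgeR's quasi-likelihood test, averaged over ages. Transcripts of 4 Y-linked genes were counted in all 12 libraries at 1 and 8 months and in 0 of the 6 at 12 months, so age and sex cannot be told apart in any comparison with 12 months. In pools of cells, fewer cells of a type and less RNA per cell also cannot be told apart.

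Promoter sequences show how these genes differ in the CG dinucleotides that methylation acts on. RefSeq promoter windows on GRCm38.p6, from 250 bases before to 50 after a transcript start, were at hand for 41 of the 48 genes, as 64 windows among 32851 for all genes. The windows of the imprinted genes held a median of 17 CG dinucleotides and 58.2% G and C, against 7 and 52.7% over all windows. The letters TGCCGC, the core that the imprint-keeping zinc finger protein Zfp57 binds when methylated, were found on either strand in 15 windows (23.4%) against 11.6% of all windows. The letters TGACGTCA, a cyclic AMP response element, were in 4 (6.25%) against 1.79% of all windows. Of the 64 windows 10 overlap another, so these matches lie at 14 and 3 separate loci; the windows of Peg3 and Usp29 share theirs. Both motifs contain a CG, and the windows of imprinted genes held more of these (median 17 against 7). The shares were not matched for CG content, so they do not show more of either motif than that content gives. Matches to each motif were counted without regard to the other, and a match describes letters only. The windows below belong to the 5 genes called in a comparison and to Meg3, whose direction turned on a single library; each CG is in capitals.

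Gnas has several starts, which give transcripts of opposite parental origin; the most upstream window (chr2:174284070-174284369, plus strand, 16 CG) and the most downstream one (chr2:174329756-174330055, plus strand, 40 CG) are shown. Those of Ndn (chr7:62348027-62348326, plus strand, 11 CG), H13 (chr2:152669211-152669510, plus strand, 21 CG), Cd81 (chr7:143052500-143052799, plus strand, 23 CG), Inpp5f (chr7:128611115-128611414, plus strand, 15 CG) and the upstream start of Meg3 (chr12:109540746-109541045, plus strand, 13 CG, with both motifs) follow.
Gnas upstream: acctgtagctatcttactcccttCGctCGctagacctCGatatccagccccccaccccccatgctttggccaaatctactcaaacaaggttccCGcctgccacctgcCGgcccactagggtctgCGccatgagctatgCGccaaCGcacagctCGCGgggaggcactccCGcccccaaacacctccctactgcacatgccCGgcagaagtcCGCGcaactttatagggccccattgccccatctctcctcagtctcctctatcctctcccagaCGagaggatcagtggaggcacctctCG
Gnas downstream: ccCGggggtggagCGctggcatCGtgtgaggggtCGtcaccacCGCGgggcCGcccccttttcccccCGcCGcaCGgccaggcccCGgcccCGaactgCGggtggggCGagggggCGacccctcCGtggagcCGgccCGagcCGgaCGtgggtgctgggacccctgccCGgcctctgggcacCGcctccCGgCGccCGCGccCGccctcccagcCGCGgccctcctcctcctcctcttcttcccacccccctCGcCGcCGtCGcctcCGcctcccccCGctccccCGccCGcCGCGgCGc
Ndn: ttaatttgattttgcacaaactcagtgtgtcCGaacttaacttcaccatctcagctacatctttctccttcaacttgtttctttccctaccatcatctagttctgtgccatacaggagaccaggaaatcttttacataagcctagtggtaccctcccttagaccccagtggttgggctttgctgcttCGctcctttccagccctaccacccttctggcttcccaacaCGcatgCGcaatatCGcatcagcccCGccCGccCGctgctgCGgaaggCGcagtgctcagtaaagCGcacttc
H13: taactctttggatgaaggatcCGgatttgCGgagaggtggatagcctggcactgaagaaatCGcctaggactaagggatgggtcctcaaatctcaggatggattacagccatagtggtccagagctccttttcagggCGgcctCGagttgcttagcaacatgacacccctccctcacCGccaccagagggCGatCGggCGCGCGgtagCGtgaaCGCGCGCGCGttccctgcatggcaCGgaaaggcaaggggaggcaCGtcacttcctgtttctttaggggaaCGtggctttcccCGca
Cd81: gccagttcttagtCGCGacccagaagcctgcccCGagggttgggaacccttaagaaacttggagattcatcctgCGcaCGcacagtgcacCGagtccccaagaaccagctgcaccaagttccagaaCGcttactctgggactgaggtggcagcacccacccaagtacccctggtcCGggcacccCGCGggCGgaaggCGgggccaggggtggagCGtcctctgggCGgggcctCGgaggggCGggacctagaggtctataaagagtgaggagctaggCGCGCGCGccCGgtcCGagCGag
Inpp5f: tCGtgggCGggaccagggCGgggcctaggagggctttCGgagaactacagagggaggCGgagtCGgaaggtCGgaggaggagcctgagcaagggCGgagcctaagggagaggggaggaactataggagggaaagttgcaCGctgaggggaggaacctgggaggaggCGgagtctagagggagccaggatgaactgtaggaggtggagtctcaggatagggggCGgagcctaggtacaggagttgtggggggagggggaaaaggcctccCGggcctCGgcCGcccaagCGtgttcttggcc
Meg3: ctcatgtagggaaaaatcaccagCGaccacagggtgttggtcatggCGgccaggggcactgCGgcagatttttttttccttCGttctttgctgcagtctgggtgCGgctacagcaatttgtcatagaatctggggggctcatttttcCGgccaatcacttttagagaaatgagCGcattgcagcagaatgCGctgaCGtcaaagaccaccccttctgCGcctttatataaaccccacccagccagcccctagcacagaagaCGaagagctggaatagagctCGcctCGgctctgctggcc

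Genes known as paternally expressed headed the set by level per kilobase, though Blcap, among the 8 highest, is known as maternally expressed. Snrpn, which encodes a protein of the small nuclear ribonucleoprotein particles of the spliceosome, had a mean of 254 CPM per kb over the 18 libraries, above 99.6% of the genes tested. Nap1l5, a nucleosome assembly protein gene, followed at 102 CPM per kb, Ndn, which encodes necdin, a protein known to restrain cell division and death in neurons, at 57.7, and Nnat, the gene of the membrane proteolipid neuronatin, at 32.1. Impact (13.2), Blcap (12.7), Mest (12.3) and Peg3 (10.6) completed the 8 highest. The lowest gene tested was Usp29, at 0.0316 CPM per kb.

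**Figure D1:**
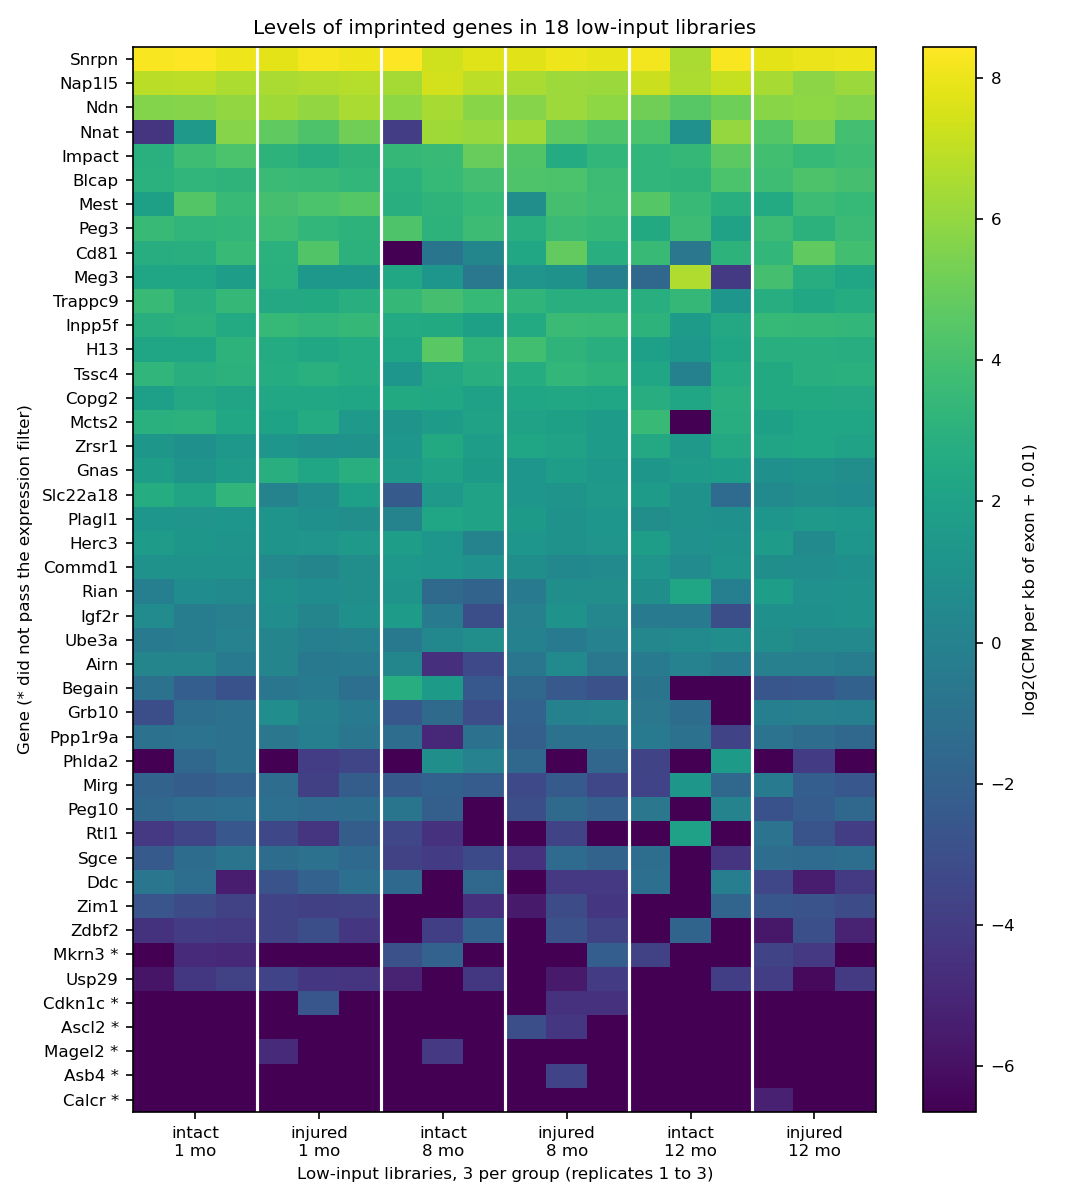
Levels of the 44 imprinted genes with any count, as log2 of CPM per kb of exon plus 0.01 (colour), in each of the 18 low-input libraries, with genes ordered by mean level. Snrpn, Nap1l5 and Ndn, which have the highest means over the 18 libraries, fill the top rows. Nnat is dark in single intact libraries, and Meg3 and Rtl1 are bright in intact 12-month replicate 2.

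The highest genes differed in how steady they were. Snrpn stood at 671, 747 and 583 CPM in intact and 489, 636 and 567 CPM in injured libraries at 1 month. At 8 months it was at 729, 352 and 448 CPM in intact and 464, 583 and 516 CPM in injured libraries. At 12 months the intact values were 623, 199 and 672 CPM and the injured values 492, 539.6 and 568.3 CPM. The groups overlapped at every age, and the low value of 199 CPM belonged to the library that stood apart. Nnat, by contrast, ran from 0.0750 CPM to 145 CPM within intact libraries. Its intact values were 0.0750, 4.99 and 94.4 CPM at 1 month, 0.103, 145 and 128 CPM at 8 months, and 32.3, 3.61 and 123 CPM at 12 months. Its injured values were 49.4, 33.8 and 65.03 CPM, then 145, 47.01 and 35.6 CPM, then 40.6, 80.97 and 28.3 CPM. No injured library fell below 28.3 CPM, yet intact libraries lay both above and below the injured ones.

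Impact encodes a regulator of the translational stress kinase Gcn2. It was at 25.9, 46.7 and 62.5 CPM in intact and 29.04, 23.3 and 31.3 CPM in injured libraries at 1 month, at 36.5, 39.5 and 103 CPM and 69.01, 21.6 and 35.2 CPM at 8 months, then 33.8, 36.1 and 86.3 CPM and 49.5, 37.03 and 46.8 CPM at 12 months. Mest, a gene of the alpha/beta hydrolase fold family, was at 14.8, 83.9 and 46.7 CPM in intact and 62.2, 69.7 and 87.1 CPM in injured libraries at 1 month, at 27.7, 36 and 42.8 CPM and 6.94, 63.2 and 53.7 CPM at 8 months, then 85.8, 45.2 and 27.6 CPM and 23.7, 51.8 and 43.6 CPM at 12 months. Intact and injured values of both genes overlapped at every age. Peg3, a zinc finger gene, was at 160.2, 129 and 135 CPM in intact and 176, 135 and 115 CPM in injured libraries at 1 month, at 256, 116 and 170.4 CPM and 95.7, 167 and 139 CPM at 8 months, then 74.6, 173 and 54.8 CPM and 174, 108 and 164 CPM at 12 months. Its groups overlapped at each age, and at 12 months only the intact library that stood apart reached the injured range.

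Of the 48 genes, 10 did not pass the filter. Igf2, the fetal growth factor, H19, the noncoding RNA of the same domain, and Dlk1 and Dio3, which bound the domain named after them, had 0 counts in all 18 libraries and were not detectable at this depth. A count of 0 allows up to 0.103 to 5.42 CPM in a library (3 counts, counting error only). Asb4, Ascl2, Calcr, Cdkn1c, Magel2 and Mkrn3 had 1 to 27 counts summed over the libraries and did not pass the filter.

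Neighbouring genes that share a control region were set side by side per kilobase. Nap1l5 lies inside Herc3, on the opposite strand, and exceeded it in 18 of 18 libraries, by a median ratio of 39.5. Nnat lies inside Blcap and exceeded it in 13 of 18, with ratios from 0.00512 to 7.22. Zrsr1, a splicing factor gene inside Commd1, was above its host in 16 of 18 libraries (median ratio 1.98). Mest was above Copg2 in 16 of 18 (median ratio 2.58), though the ends of the pair share 912 bp of exon and the counts ignored strand. Mcts2 exceeded its host H13 in 5 of 18, and Airn, the noncoding RNA antisense to Igf2r, exceeded Igf2r in 3 of 18. Peg10 exceeded Sgce in 9 of 18 libraries. Ndn was below Snrpn in all 18, with ratios from 0.110 to 0.544.

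Blcap, known as a gene whose transcript undergoes A-to-I editing, varied less than Nnat. Its values were 24.4, 29.02 and 27.7 CPM in intact and 37.997, 34.4 and 30.5 CPM in injured libraries at 1 month. They were 24.5, 33.5 and 45.4 CPM and 60.04, 54.5 and 38.8 CPM at 8 months, and 29.3, 27.1 and 53.5 CPM and 40.2, 56.8 and 48.2 CPM at 12 months. The injured libraries lay above the intact ones at 1 month and overlapped them at the other ages, and the averaged log2 change of 0.43 ± 0.17 (SE) did not pass the test (adjusted p = 0.166, edgeR).

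In the Dlk1-Dio3 domain on chromosome 12, the maternal noncoding RNAs Meg3, Rian and Mirg were measured in all 18 libraries, while the paternal gene Rtl1, a retrotransposon-derived gene, was near the limit of detection. Meg3, which spans chr12:109541001-109571726 on GRCm38, was at 83.6, 89.4 and 60.2 CPM in intact and 140.2, 48.2 and 46.7 CPM in injured libraries at 1 month. At 8 months it was at 90.03, 44.4 and 11.7 CPM in intact and 41.4, 37.4 and 16.04 CPM in injured libraries. At 12 months the intact values were 5.74, 1826 and 0.869 CPM and the injured values 281, 123 and 89.2 CPM. The value of 1826 CPM belongs to intact 12-month replicate 2, and the other 2 intact libraries lay below all 3 injured ones.

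That library decided the direction fitted for Meg3. The log2 change with injury, averaged over ages, was -0.83 ± 0.85 (SE; adjusted p = 0.636, edgeR) with it and 1.64 (adjusted p = 0.0370) without it. At 12 months the change was -1.88 (adjusted p = 0.552) with it and 5.53 (adjusted p = 0.00991) without it, and from 8 to 12 months in intact neurons it turned from 3.63 (adjusted p = 0.175) to -3.76 (adjusted p = 0.0223). All of these are fits over 14212 genes or, without the library, those that passed the filter again.

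**Figure D2:**
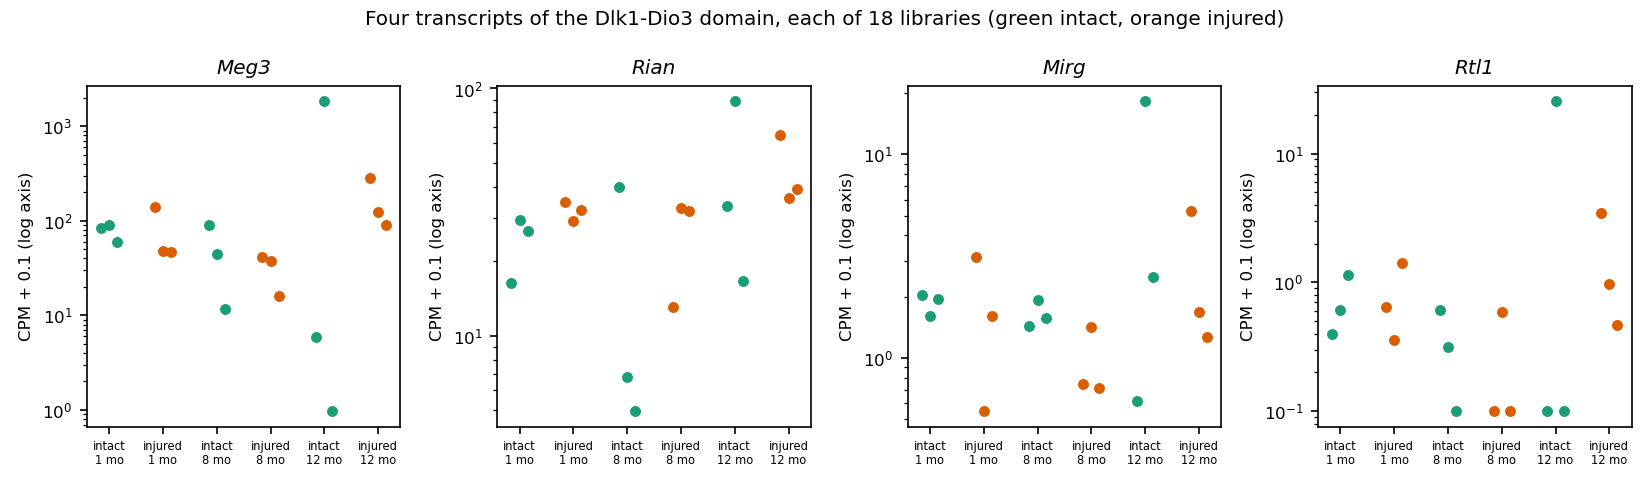
CPM plus 0.1, on a log axis, of Meg3, Rian, Mirg and Rtl1 in each of the 18 low-input libraries (green intact, orange injured). Intact 12-month replicate 2 is the highest point in all 4 panels, at 1826 CPM for Meg3, and the other intact 12-month libraries hold the 2 lowest Meg3 values.

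Rian, Mirg and Rtl1 were also highest in that library. Rian, a host of small nucleolar RNAs, was at 16.3, 29.4 and 26.5 CPM in intact and 34.7, 28.97 and 32.3 CPM in injured libraries at 1 month, at 39.97, 6.70 and 4.85 CPM and 12.95, 32.6 and 31.95 CPM at 8 months, then 33.4, 88.5 and 16.5 CPM and 64.8, 36.1 and 39.3 CPM at 12 months. Mirg, which carries 14 microRNA hairpins in its span, was at 1.95, 1.504 and 1.85 CPM and 3.03, 0.449 and 1.502 CPM at 1 month, at 1.34, 1.84 and 1.48 CPM and 0.648, 1.32 and 0.614 CPM at 8 months, then 0.514, 18.1 and 2.39 CPM and 5.15, 1.58 and 1.17 CPM at 12 months. Only at 8 months did the groups of Mirg not overlap, with the injured libraries below the intact ones. Rtl1 was at 0.300, 0.513 and 1.04 CPM and 0.545, 0.256 and 1.33 CPM at 1 month, at 0.515, 0.216 and 0 CPM and 0, 0.486 and 0 CPM at 8 months, then 0, 25.3 and 0 CPM and 3.33, 0.879 and 0.364 CPM at 12 months. Of the 7 microRNA hairpins in the span of Rtl1, 6 lie on the opposite strand, so its unstranded counts may hold reads of their maternal precursor.

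Begain, at the edge of the domain, was not counted in that library. It encodes a guanylate kinase-associated protein of synapses. Its values were 2.17, 0.957 and 0.577 CPM in intact and 2.60, 3.33 and 1.94 CPM in injured libraries at 1 month, then 29.98, 13.1 and 0.739 CPM and 1.48, 0.764 and 0.546 CPM at 8 months, then 2.40, 0 and 0 CPM and 0.691, 0.703 and 1.09 CPM at 12 months. High values were seen in 2 intact 8-month libraries only, and the log2 change with injury at 8 months of -3.97 ± 1.09 (SE) did not pass the test (adjusted p = 0.102, edgeR).

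In the Snrpn-Ube3a domain on chromosome 7, the region of Prader-Willi and Angelman syndromes in humans, Snrpn and Ndn were high, Magel2 and Mkrn3 nearly undetected, and the ubiquitin ligase gene Ube3a intermediate at 24.1 ± 7.31 CPM (SD, n = 18). Ube3a is expressed from the maternal allele in neurons. It was at 14.9, 16.6 and 21.3 CPM in intact and 23.7, 18.7 and 19.8 CPM in injured libraries at 1 month, at 13.8, 26.7 and 36.4 CPM and 19.9, 15.97 and 21.03 CPM at 8 months, then 25.4, 30.7 and 34.98 CPM and 36.6, 28.6 and 27.9 CPM at 12 months. All 6 libraries at 12 months exceeded the 6 at 1 month, but neither the intact change (log2 0.78 ± 0.32 SE, adjusted p = 0.384, edgeR) nor the injured change (0.58 ± 0.31, adjusted p = 0.999) passed the test. Exons of Ube3a overlap those of antisense transcripts such as Snhg14, and those of Snrpn overlap Snurf, so the values of both genes are uncertain.

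The comparison of injured with intact neurons asks which genes respond to sciatic nerve injury. Averaged over the 3 ages, Inpp5f, a phosphoinositide phosphatase gene, and Cd81, which encodes a tetraspanin of the cell surface, were higher after injury, and 0 of the 38 imprinted genes were lower. The share of 2 in 38 stands beside 6.18% of all genes tested (878 of 14212). Estimates split evenly, with 19 positive and 19 negative and a median log2 change of 0.02, against 0.03 over all genes. Scaling to the spike-ins in place of TMM moved the median of all genes to 2.90, so every direction given here is relative to the other genes of a library; Nap1l5, for example, had an estimate of -0.56 with TMM and 2.11 with the spike-ins. Of the genes known as paternally expressed 9 of 17 had a positive estimate, and of those known as maternally expressed 8 of 17.

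Inpp5f (chr7:128611328-128696425, plus strand, GRCm38), whose promoter window is printed above, was at 61.1, 69.9 and 50.3 CPM in intact and 90.1, 82.1 and 86.2 CPM in injured libraries at 1 month. At 8 months it was at 48.8, 47.6 and 31.5 CPM in intact and 48.8, 104 and 98.4 CPM in injured libraries. At 12 months the values were 71.2, 27.1 and 45.8 CPM and 91.5, 85.9 and 83.3 CPM. Injured libraries lay above all intact ones at 1 and 12 months, while at 8 months a single injured library was level with the highest intact one. The averaged log2 change was 0.77 ± 0.19 (SE; adjusted p = 0.0227, edgeR), with 0.51, 0.97 and 0.81 at 1, 8 and 12 months. The call was lost without injured 1-month replicate 1 (adjusted p = 0.0510) or injured 8-month replicates 2 (0.0582) or 3 (0.0554), and in the fit blocked on replicate number (0.79, adjusted p = 0.0951). With the share of counts on CT010467.1 as a covariate, the change was 0.0072 (adjusted p = 1.0).

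Cd81 (chr7:143052739-143067934, plus strand, GRCm38) was at 19.2, 20.5 and 34.3 CPM in intact and 23.2, 57.4 and 23.7 CPM in injured libraries at 1 month. At 8 months the intact libraries held 0, 1.62 and 3.45 CPM and the injured ones 14.3, 81.9 and 21.2 CPM. At 12 months the values were 33.9, 1.81 and 24.8 CPM and 29.01, 76.5 and 42.9 CPM. The groups were apart at 8 months only, where no intact library exceeded 3.45 CPM. The averaged log2 change was 2.05 ± 0.51 (SE; adjusted p = 0.0253, edgeR). It was not called without injured replicate 2 of 1 month (adjusted p = 0.0546), 8 months (0.0645) or 12 months (0.0609), without intact 1-month replicate 2 (0.0541), with the replicate block (2.16, adjusted p = 0.0823) or with the covariate (0.77, adjusted p = 0.748).

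Summed markers of other cells were also compared between conditions. Those of satellite glia lay apart at 1 month only, those of fibroblasts at 1 and 8 months, and those of immune cells at 8 months only. The sums of 8 Schwann cell markers and of 8 endothelial and mural markers overlapped at every age. The summed level of 8 satellite glia markers was 97.7 to 611 CPM in intact and 1285 to 2022 CPM in injured libraries at 1 month, 97.2 to 528 and 357 to 701 CPM at 8 months, and 46.8 to 742 and 114 to 434 CPM at 12 months. The sum of 8 fibroblast markers was 4.67 to 11.9 CPM in intact and 44.1 to 69.7 CPM in injured libraries at 1 month, 2.59 to 16.8 and 19.9 to 78.95 CPM at 8 months, and 0 to 77.7 and 28.1 to 51.3 CPM at 12 months. The satellite glia sum rested mostly on Apoe (median 271 CPM, highest 1811 CPM), while Sox10 (median 1.00 CPM), Cdh19 (1.10 CPM), Kcnj10 (1.39 CPM) and Entpd2 (0.389 CPM) were low. The fibroblast sum rested on Dcn (median 19.8 CPM), while the collagen gene Col3a1 and Dpt had a median of 0 CPM. Cd81 is widely expressed in glia and fibroblasts, and the part of these markers in its change was not tested. The 9 immune markers summed to 0 to 32.5 CPM per library.

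**Figure D3:**
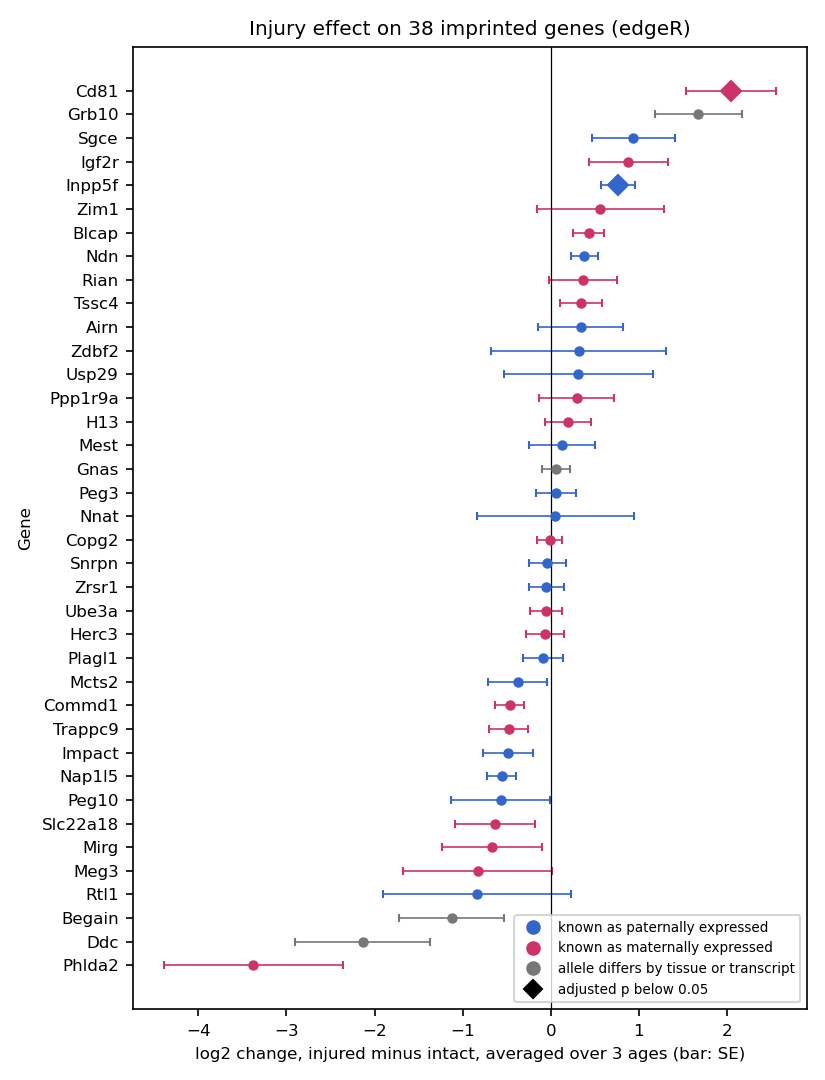
The log2 change with injury, averaged over 3 ages, of the 38 imprinted genes tested, with bars for the SE and colours for the allele each is known to be expressed from. Cd81 (2.05) and Inpp5f (0.77), drawn as diamonds, passed the test, and genes of each parental class lie on both sides of 0.

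Counts at an unadjusted p below 0.05, here and below, lack the share of all genes and are no result about imprinted genes. A further 8 imprinted genes had an unadjusted p below 0.05 in the averaged comparison and did not pass adjustment. They included Grb10, an adaptor that restrains insulin receptor signalling (log2 1.67 ± 0.49 SE, adjusted p = 0.0535, edgeR), Nap1l5 (-0.56 ± 0.16, adjusted p = 0.0535) and Phlda2, a growth-restraining gene of the placenta (-3.37 ± 1.01, adjusted p = 0.0575) with 82 counts in all 18 libraries. Nap1l5 was at 212, 226 and 176 CPM in intact and 169, 184 and 196 CPM in injured libraries at 1 month, at 159, 313 and 227 CPM and 167, 135 and 132 CPM at 8 months, then 277, 173 and 251 CPM and 166, 103 and 131 CPM at 12 months. Injured libraries lay below all intact ones at 12 months and overlapped them at the other ages. Without intact 12-month replicate 2, Nap1l5 was called lower (-0.61, adjusted p = 0.0132), as were Phlda2 (-3.48) and Commd1 (-0.50), and Meg3 was called higher, so that 6 genes passed (15.8% of 38) in place of 2; over all genes the share called rose from 6.18% to 9.92%. The count was also 6 without intact 8-month replicate 1 (7.80% of all genes), 5 and 4 without intact 12-month replicates 1 and 3, 1 without injured 1-month replicates 1 or 2, injured 8-month replicate 3, injured 12-month replicate 2 or intact 1-month replicate 2, and 0 without injured 8-month replicate 2. The share of all genes called also moved between fits. A count given here or below without that share is no result about imprinted genes.

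At the separate ages few genes passed. At 1 month 0 of 38 were called by edgeR (0.232% of all genes; 2 at an unadjusted p below 0.05), against 1 by DESeq2, which was Gnas. At 8 months 1 was called, Cd81 (0.957% of all genes), with a log2 change of 4.50 ± 1.00 (SE; adjusted p = 0.0426). At 12 months 0 were called (2.99% of all genes; 7 at an unadjusted p below 0.05), against 1 by DESeq2 (Nap1l5) and 3 without intact 12-month replicate 2 (Meg3, Nap1l5 and Peg3). The 8-month call of Cd81 was lost in 13 of the 18 fits that left out a library, with adjusted p-values of 0.0541 to 0.183. These were the fits without any injured 1-month or 12-month library, injured 8-month replicates 2 and 3, intact 1-month replicates 2 and 3, intact 8-month replicates 1 and 2, and intact 12-month replicate 3. It was also lost with the replicate block (4.83, adjusted p = 0.155) and with the covariate (3.40, adjusted p = 0.232). No imprinted gene had injured and intact libraries apart in the same direction at all 3 ages (0 of 38, against 1.95% of all genes).

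**Figure D4:**
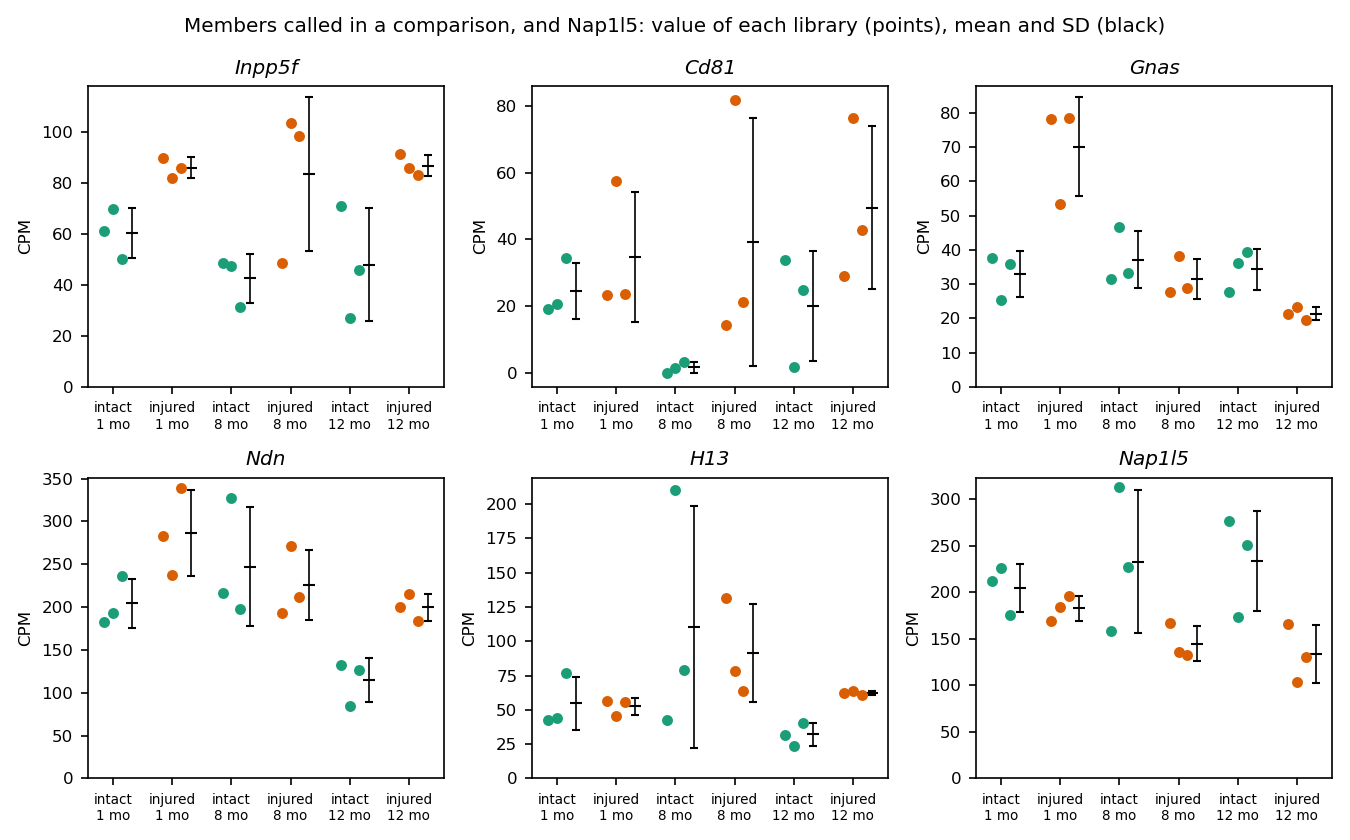
CPM of the 5 imprinted genes called in a comparison, and of Nap1l5, with 3 libraries per group as points and the mean and SD in black. Gnas is highest in injured 1-month libraries (53.5 to 78.6 CPM) and lowest in injured 12-month ones (19.4 to 23.2 CPM), and Cd81 does not exceed 3.45 CPM in intact 8-month libraries.

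Gnas, which encodes the stimulatory G protein alpha subunit that couples receptors to cyclic AMP production, fell between 1 and 12 months of age in injured neurons. In injured libraries it was at 78.4, 53.5 and 78.6 CPM at 1 month, 27.6, 38.2 and 28.9 CPM at 8 months and 21.3, 23.2 and 19.4 CPM at 12 months. The 3 ages did not overlap. In intact libraries it was at 37.6, 25.2 and 35.8 CPM, then 31.4, 46.7 and 33.3 CPM, then 27.7, 36.1 and 39.3 CPM, and the ages overlapped throughout. Injured libraries thus lay above all intact ones at 1 month and below all of them at 12 months. The summed satellite glia markers in injured libraries followed the same order, with 1285 to 2022 CPM at 1 month, 357 to 701 CPM at 8 months and 114 to 434 CPM at 12 months and no overlap between 1 month and the later ages, and their part in the change of Gnas was not tested.

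From 1 to 12 months in injured neurons, the log2 change of Gnas was -1.72 ± 0.27 (SE; adjusted p = 0.0105, edgeR), and it was the only imprinted gene called of 38, beside 0.113% of all genes. From 1 to 8 months the change was -1.15 ± 0.27 (adjusted p = 0.146). Injury changed Gnas by 1.09 ± 0.27 at 1 month (adjusted p = 0.171), -0.24 ± 0.27 at 8 months (adjusted p = 0.833) and -0.68 ± 0.28 at 12 months (adjusted p = 0.186), and the joint test of the injury by age interaction gave p = 0.000646 (adjusted p = 0.255). No imprinted gene passed that joint test in edgeR (0 of 38, 0.0% of all genes; 3 at an unadjusted p below 0.05, which were Gnas, Begain and Cd81), while DESeq2 called 1, Gnas. The call from 1 to 12 months was lost without injured 1-month replicates 1 or 3 (adjusted p = 0.0919 and 0.0933) or any injured 12-month library (0.0718 to 0.129), and with spike-in scaling (-2.10, adjusted p = 1.0). Of the exon length of Gnas, 13.1% is shared with Gm20721 and 8.83% with Nespas, both antisense. The counts ignored strand, so the level of Gnas over these parts is uncertain, and Nespas itself had 0 counts. The counts also do not separate the transcripts of Gnas that start at the windows printed above.

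Among intact neurons, 3 of 38 imprinted genes differed between 8 and 12 months, beside 6.69% of all genes. Other measures also separated these groups without overlap. The 8 Schwann cell markers summed to 463, 579 and 921 CPM at 8 months and 208, 415 and 374 CPM at 12 months, and mitochondrial genes took 1.32%, 1.19% and 1.23% against 3.55%, 40.5% and 2.999% of the counts outside CT010467.1; their part in the changes of Ndn, H13 and Cd81 was not tested. Ndn was at 217, 327 and 198 CPM at 8 months and 133, 84.9 and 126 CPM at 12 months, with no overlap, a log2 change of -1.10 ± 0.27 (SE; adjusted p = 0.0264, edgeR). With injury its libraries lay above all intact ones at 1 and 12 months, though neither change passed the test. At 1 month its intact libraries held 183, 193 and 237 CPM, also above those of 12 months. In injured libraries it was at 284, 238 and 339 CPM at 1 month, 193, 271 and 212 CPM at 8 months and 199.9, 215 and 184 CPM at 12 months, so that the intact 12-month libraries were the lowest of all groups. The call was lost without intact 8-month replicate 2 (-0.84, adjusted p = 0.0990), with spike-in scaling (adjusted p = 0.0817), with no filter (0.0754) and with the covariate (0.0602). Over its 23 alternatives the adjusted p ran from 0.00135 to 0.0990.

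H13, which encodes a signal peptide peptidase, was at 42.2, 210.1 and 78.8 CPM in intact libraries at 8 months and 31.9, 23.5 and 40.6 CPM at 12 months, a log2 change of -1.75 ± 0.46 (SE; adjusted p = 0.0325, edgeR). At 1 month the intact values were 42.8, 43.8 and 77.2 CPM. The injured values were 56.1, 45.4 and 55.7 CPM, then 131, 78.3 and 63.9 CPM, then 61.97, 63.8 and 60.8 CPM. The 12-month intact libraries lay below every other library, but the size of the change rested on the value of 210.1 CPM: without intact 8-month replicate 2 it was -0.89 (adjusted p = 0.184), and the call was also lost without intact 12-month replicates 1 (0.0762) or 3 (0.0518).

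Cd81 rose by 3.69 ± 0.98 (log2, SE; adjusted p = 0.0343) from 8 to 12 months in intact neurons, from the low 8-month values given above, and was lower at 8 than at 1 month by an estimate that missed the threshold (-3.83 ± 0.97, adjusted p = 0.0744, edgeR). The rise was not called without intact 8-month replicate 2 (adjusted p = 0.0994), intact 12-month replicates 1 (0.0832) or 3 (0.0642), injured 1-month replicate 1 (0.0505) or injured 12-month replicate 3 (0.0527), or with spike-in scaling (1.89, adjusted p = 0.266). The comparison with 8 months shares the intact 8-month libraries with the injury comparison, so the results for Cd81 are not separate evidence. Leaving out intact 12-month replicate 2 raised the number of imprinted genes called from 3 to 7 (and the share of all genes from 6.69% to 14.3%), leaving out intact 8-month replicate 1 raised it to 6, and leaving out intact 8-month replicate 2 or intact 12-month replicate 3 lowered it to 0 or 1.

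The remaining comparisons of age called none of the 38 imprinted genes with edgeR. From 1 to 8 months in intact neurons 5 had an unadjusted p below 0.05 and DESeq2 called 2 (0.922% of all genes passed in edgeR), and from 1 to 12 months 4 had one and DESeq2 called 1 (0.246%). From 1 to 8 months in injured neurons 3 had one and DESeq2 called 1 (0.225%), and from 8 to 12 months 2 had one and DESeq2 called 0 (0.0633%). From 1 to 8 months in intact neurons 1 imprinted gene passed without intact 12-month replicate 2 (Cd81), without intact 8-month replicate 1 (Airn) and without intact 8-month replicate 3 (Begain).

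Of 45 further genes reported as imprinted, 27 were tested, and a median log2 change of 0.36 with injury, averaged over ages, stood beside 0.03 over all genes. A single one was called in that comparison, Phactr2, a phosphatase and actin regulator gene, beside 6.18% of all genes. It was higher after injury (1.92 ± 0.24 SE, adjusted p = 0.000127, edgeR) and stayed past the threshold in all 24 alternatives. It was also the only one called at 8 months (2.07, beside 0.957% of all genes) and at 12 months (2.28, beside 2.99%). The 8-month call was lost without injured 8-month replicates 2 or 3 or intact 8-month replicates 1 or 3 (adjusted p = 0.0777 to 0.122, edgeR). Spike-in scaling (0.0920), the covariate (0.0906) and the replicate block (0.103) also lost it, and the covariate lost the 12-month call (0.149). Kcnq1ot1, the noncoding RNA of the domain that holds Cd81, was at 3.25, 57.8 and 0.652 CPM in intact libraries at 12 months and 0.206, 0 and 0.903 CPM at 8 months. Its log2 change of 5.49 ± 1.48 (SE; adjusted p = 0.0348, edgeR) was the only call of the list there, and it rested on intact 12-month replicate 2, without which it was 2.37 (adjusted p = 0.165). The call was also lost without intact 8-month replicates 1 (0.0815) or 2 (0.1001) or injured 1-month replicate 1 (0.0505). Spike-in scaling (2.29, adjusted p = 0.240) and the covariate (2.96, adjusted p = 0.169) lost it as well.

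Of 28 genes that keep or erase imprints, 20 were tested. Tet3, which oxidises methylcytosine, was the only one called with injury averaged over ages (1.33, adjusted p = 0.00451, edgeR, beside 6.18% of all genes), in all 24 alternatives as well. Dnmt1, the maintenance methyltransferase, was the only one called at 12 months (2.60, adjusted p = 0.0489, beside 2.99%). Ehmt1 (-1.70, adjusted p = 0.0338) and Dnmt3a (-2.11, adjusted p = 0.0446) were lower at 12 than at 8 months in intact neurons, beside 6.69% of all genes. These 3 calls lay close to the threshold: that of Dnmt1 was lost in 13 of the 18 fits without a library (adjusted p up to 0.157), that of Ehmt1 in 10 (up to 0.114) and that of Dnmt3a in 14 (up to 0.0880). Dnmt1 was also not called with RLE scaling (0.0504), the replicate block (0.143) or the covariate (1.66, adjusted p = 0.499). Ehmt1 was not called with spike-in scaling (0.0692) or no filter (0.133), nor Dnmt3a with RLE scaling (0.0554) or no filter (0.0644).

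Single neurons gave each gene's spread from cell to cell. Of 69 cells, 55 had at least 100000 counts outside the spike-ins and CT010467.1: 12 intact and 17 injured at 1 month, and 8 intact and 18 injured at 1 year. The 14 others, with at most 95399 counts, were left out, a minimum chosen after the cells were seen. Median depths were 1555860, 2504750, 7145020 and 3917070 counts in that order, so shares of cells with a count are not comparable between groups. The labels name no animal for a cell, so each group is 1 sample, no test was made, and the 95% exact Poisson intervals of pooled levels cover counting error only. No 2 cells held identical values.

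The same genes led per kilobase. Snrpn was counted in 55 of 55 cells, with a mean of 597 CPM per kb, Nap1l5 in 52 (342 CPM per kb) and Ndn in 54 (172 CPM per kb), followed by Cd81 (51.3), Nnat (50.2) and Impact (40.8). The median cell told Cd81 and Nnat apart from the rest, at 6.75 and 0.215 CPM per kb, since a few cells held most of their counts. In intact 1-month cells 99.9% of Nnat counts came from a single cell, and only 4 of the 12 had a count. Lowest were Igf2 and Dio3, with 0 counts in all 55 cells, then Dlk1 with 3 counts, Magel2 with 14, Calcr with 33 and Mkrn3 with 39; 0 of 55 cells allows a share of up to 5.45% of cells with a count. H19 had 163 counts in 2 intact 1-year cells, and 99.4% were from a single cell. Ascl2 had 364 counts in 4 injured 1-year cells, of which 97.8% were from a single cell.

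**Figure D5:**
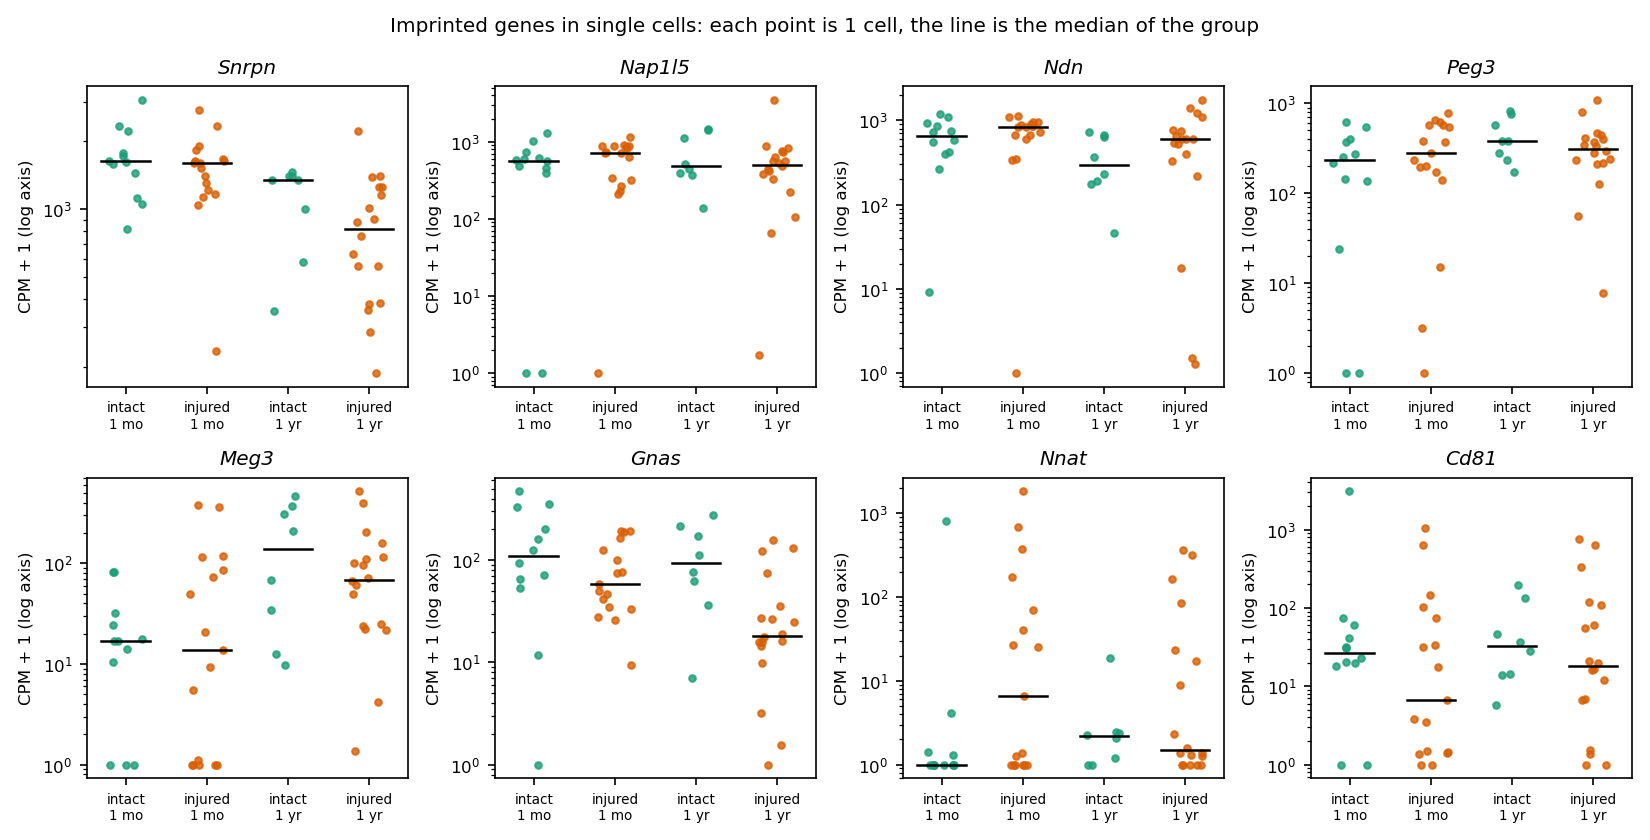
CPM plus 1, on a log axis, of 8 imprinted genes in 55 single cells, by condition and age, with the group median as a line. Snrpn was counted in every cell, from 187 to 3063 CPM, while among injured 1-month cells Nnat runs from 0 to 1841 CPM and Cd81 from 0 to 1031 CPM.

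Gnas and Inpp5f were set beside the pools. Pooled over cells, Gnas was at 189 CPM (interval 184.2 to 193.2) in intact and 76.5 CPM (74.1 to 78.9) in injured cells at 1 month, and at 113 CPM (110.0 to 115.6) and 29.6 CPM (28.5 to 30.7) at 1 year. Its median cell was at 108, 57.4, 92.7 and 17.2 CPM in that order, so the injured median was lower at both ages, whereas in the low-input libraries of 1 month the injured values were higher. Within injured cells the 1-year median was below that of 1 month, the same order as in the injured low-input libraries. Inpp5f was at a median of 104.5 CPM in intact and 225 CPM in injured cells at 1 month, and at 149.6 and 84.6 CPM at 1 year. Its injured median was higher at 1 month, the same order as in the low-input libraries. At 1 year it was lower, whereas the injured low-input libraries of 12 months lay above all intact ones. Cd81 had medians of 25.8 and 5.63 CPM at 1 month and 31.6 and 17.2 CPM at 1 year, although its pooled level was higher in injured cells (206 against 47.8 CPM at 1 month), of which 54.9% came from a single cell.

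Ndn had medians of 658 and 843 CPM in intact and injured cells at 1 month and 297 and 597 CPM at 1 year, with intact 1-year cells the lowest group as in the pools. Snrpn had medians of 1629 and 1597 CPM at 1 month and 1349 and 819 CPM at 1 year. Meg3 medians were 15.9 and 12.7 CPM at 1 month and 136.6 and 67.8 CPM at 1 year, and in intact 1-year cells the gene ran from 8.84 to 465 CPM. Across the 55 cells, which share depth and group, Spearman's rho was 0.434 for Meg3 and Rian, 0.425 for Meg3 and Mirg, 0.371 for Ndn and Snrpn and 0.392 for Peg3 and Usp29, as descriptions.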

How the data were processed

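RNA of the 18 low-input libraries and 69 single neurons was analysed; the 94 methylation samples were not analysed here. The authors deposited raw counts per gene, not normalized, made with featureCounts 1.5.2 on GENCODE vM16 without strand, per the file headers; Trim Galore, STAR and mm10 are named in the submitters' processing notes. The 136 RNA samples carry 87 names, 1 column each. Low-input counts were tested with edgeR 4.0.16 (R 4.3.3), using TMM, filterByExpr and robust quasi-likelihood fits of all 6 groups, with 92 spike-ins left out and a Benjamini-Hochberg threshold of 0.05 over 14212 genes; replicates varied with a common coefficient of 0.543. On simulated data, 68% of genes changed by a log2 of 2 and 82% of those changed by 3 were called in the averaged comparison. Alternatives were RLE and spike-in scaling, no filter, DESeq2 1.42.0, a covariate (logit share of CT010467.1), a replicate block and each library left out. Genes named in the text are those called in a comparison, the highest per kilobase, the named domains and neighbours, and genes near the threshold; the last were chosen after their values were seen. The members and lists were chosen with earlier results of these data known. Deviations of same-numbered libraries from their group means correlated over 2365 genes at 0.109, 0.371 and 0.328 within 1 month. The correlations were -0.432 to -0.0159 at 8 months and -0.0852 to 0.0783 at 12 months. Libraries of different numbers were not compared, so these values do not show whether the numbers pair libraries at any age. The main fits used no pairing, and the replicate block paired all ages, so no fit paired 1 month alone. Cells needed 100000 counts, a minimum chosen after the data were seen.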

Additional observations from a re-analysis of the deposited data

Results flagged for a closer look

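Among the 8 intact 1-year cells, the highest cell stood far from the others for 12 of the 42 imprinted genes with a count there, by Dixon's critical value for 8 values. Chance passes that value in about 1 of 20 groups of normally distributed values. Single cells with many counts of 0 do not give such values, so the 12 genes flagged are not set against that rate. The same cell, replicate 8, was highest for 6 of them: Sgce at 54.34 CPM, Ppp1r9a at 141.3 CPM, Nnat at 17.74 CPM, Cdkn1c at 38.2 CPM, H19 at 25.89 CPM and Asb4 at 20.3 CPM. Replicate 3 was highest for Magel2 (1.493 CPM), Mkrn3 (1.066 CPM) and Zim1 (2.346 CPM). H13 was highest in replicate 6 (384.4 CPM), Grb10 in replicate 4 (67.35 CPM) and Mirg in replicate 7 (13.85 CPM). Magel2, Mkrn3 and Asb4 had counts in 1 of the 8 cells only, so their flags were fixed in advance whatever the value. H19 and Zim1 had counts in 2 of the 8 cells and Cdkn1c in 4.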

How the results depend on the processing

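No alternative turned the sign of the 7 calls named in the report (Inpp5f and Cd81 with injury averaged over ages, Cd81 at 8 months, H13, Ndn and Cd81 from 8 to 12 months in intact neurons, and Gnas from 1 to 12 months in injured ones), but each was lost under 3 to 15 of its 23 or 24 alternatives, and Inpp5f was at 0.0072 (adjusted p = 1.0) with the covariate. The covariate lay apart between injured and intact libraries at each age, so injury calls lost with it say nothing of a weaker effect. For injury averaged over ages, 2 imprinted genes were called, against 35 of 38 with spike-in scaling (94.9% of all genes called), 7 of 44 with no filter (6.04%), 6 of 44 with DESeq2 (5.16%) and 0 of 38 with the covariate (1.64%), and 0 to 6 when a library was left out. At 1 month the count of 0 became 1 with DESeq2. At 8 months the count of 1 became 2 with no filter or DESeq2 and 0 with the covariate, and ran from 0 to 2 without a library. At 12 months the count of 0 became 36 with spike-in scaling (96.2% of all genes), 2 with no filter and 1 with DESeq2, and ran from 0 to 3 without a library. The replicate block fit called 0 imprinted genes averaged over ages and 0 at 8 months and changed no other call. Whether the replicate numbers pair libraries is not known, so these losses cannot be read as a weaker effect. In intact neurons from 1 to 8 months the count of 0 became 1 with spike-in scaling, 3 with no filter and 2 with DESeq2 (0 to 1 without a library); from 1 to 12 months it became 35 (89.9% of all genes), 1 and 1. From 8 to 12 months the count of 3 became 1, 6 and 5 in that order (0 to 7 without a library). In injured neurons DESeq2 called 1 gene from 1 to 8 months, spike-in scaling 0 from 1 to 12 months (0 to 1 without a library), and no filter 1 from 8 to 12 months. The interaction count of 0 became 2 with no filter and 1 with DESeq2. Spike-in scaling moved the median log2 change of all genes by up to 5.36, at 12 months. The cause of these moves was not tested. With no minimum of counts per cell, an alternative added after seeing the data, 68 cells were kept; the median of Gnas was then 96.4 CPM in intact and 48.4 CPM in injured cells at 1 month and 92.7 and 17.9 CPM at 1 year, and that of Cd81 in injured 1-month cells 2.79 CPM. The share of all genes called is given for some alternatives only, and a count without it is no result about imprinted genes. Groups of 3 libraries, of which 1 had an effective size of 553669, limit what could be called.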
